A study of Mus musculus with 12 samples.

Results

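The general mRNA decay machinery was taken as the 50 genes, of the 14909 in the count table, whose symbols name exosome subunits (Exosc and Dis3 genes), subunits of the CCR4-NOT complex (Cnot genes), the deadenylases Pan2, Pan3 and Parn, decapping proteins (Dcp and Edc genes), Lsm proteins, the exonucleases Xrn1 and Xrn2, and the helicase-side proteins Skiv2l, Skiv2l2 and Ttc37. All 50 passed the filter on low counts, as did 14274 genes in all. RNA sequencing was done on frontal cortex of C57BL/6 mice, from 7 wild-type animals (WT 1 to WT 7) and 5 animals labelled UPF3B KO (KO 1 to KO 4 and KO 6), the latter described as Upf3b-null. The labels describe no treatment beyond dissection, and age, sex and the way the allele was made are not stated there. Within each group every library carries its own mouse number, so the spread below was taken as that between animals. The numbers 1 to 4 and 6 occur in both groups, and whether libraries that share a number form pairs was not settled.

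Most eukaryotic mRNAs are degraded after their poly(A) tail has been shortened. The PAN2-PAN3 complex and then the CCR4-NOT complex remove the tail, after which the body is either decapped by DCP2 with its activators and digested from the 5′ end by XRN1, or digested from the 3′ end by the RNA exosome with the SKI complex. UPF3B is a factor of nonsense-mediated decay (NMD), the pathway that removes mRNAs whose translation stops too early, and NMD hands its targets to these same deadenylation, decapping and exonuclease steps. Loss of UPF3B in humans is a cause of X-linked intellectual disability.

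The libraries held 4684039 to 5425774 counts in WT and 4990643 to 6617759 in KO. KO 1 was the shallowest KO library, and its total lay above 5 of the 7 WT totals, whereas the other KO totals lay above all WT totals. Upf3b had 157 to 219 counts in the WT libraries and 11 to 24 in the KO libraries, or 38.3 ± 2.48 CPM (read counts scaled to the normalised size of their library, SD, n = 7) against 2.76 ± 0.877 CPM (SD, n = 5), which is 7.20% of the WT level (exact permutation test, two-sided, over every arrangement of the labels, p = 0.00253, the smallest it can give). Cortical markers were present: the summed level of 5 excitatory neuron genes was 1293 to 1613 CPM in WT and 1081 to 1545 CPM in KO, with 2 of the 5 lower by the test used below. Of the 5 microglial markers 3 were lower, and their sum did not overlap between the groups (372 to 465 CPM in WT, 342 to 371 CPM in KO). Of the oligodendrocyte precursor markers 2 of 3 were higher, and of the endothelial markers 3 of 5. Of the oligodendrocyte markers 3 of 5 were lower, of the inhibitory neuron markers 2 of 5 and of the astrocyte markers 1 of 5. Of the 4 striatal markers and the 2 choroid plexus markers tested, 0 were called. Of the 4 blood markers only 1 was in the count table, and it was not called. The summed striatal level was 248 to 615 CPM in WT and 294 to 506 CPM in KO. That of choroid plexus was 4.20 to 87.9 CPM in WT and 6.94 to 75.0 CPM in KO, so both varied widely within the groups. By the same test 15.3% of all tested genes were higher and 14.4% lower. The part of these cell types in the results on the decay genes was not tested. In bulk tissue fewer cells of a type and less RNA per cell cannot be told apart.

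In KO cortex 11 of the 50 decay genes were higher and 1 was lower, by edgeR's quasi-likelihood test on the counts with Benjamini-Hochberg adjustment over all tested genes at 0.05. These are 22% and 2% of the members, where 15.3% of all tested genes were called higher and 14.4% lower. The genes that rose were the deadenylase subunit Pan3, the SKI scaffold Ttc37, the exosome nucleases Dis3 and Dis3l, the exosome core subunit Exosc5, the CCR4-NOT genes Cnot3, Cnot4 and Cnot1, the deadenylase Parn, the decapping activator Dcp1b and the histone pre-mRNA processing gene Lsm11. The gene that fell was Lsm14b. The machinery did not shift as a whole: 25 members had a fold change above 0 and 25 below, and the median log2 fold change was -0.01, beside 0.03 for all tested genes. In 6 members, 12% of them, every KO library lay above every WT library, against 5.84% of all tested genes. In 0 members did every KO library lie below every WT library, against 4.80% of all tested genes. At an unadjusted p under 0.05, 16 members were above 0 and 7 below, where 22.2% and 19.2% of all tested genes were.

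**Figure D1:**
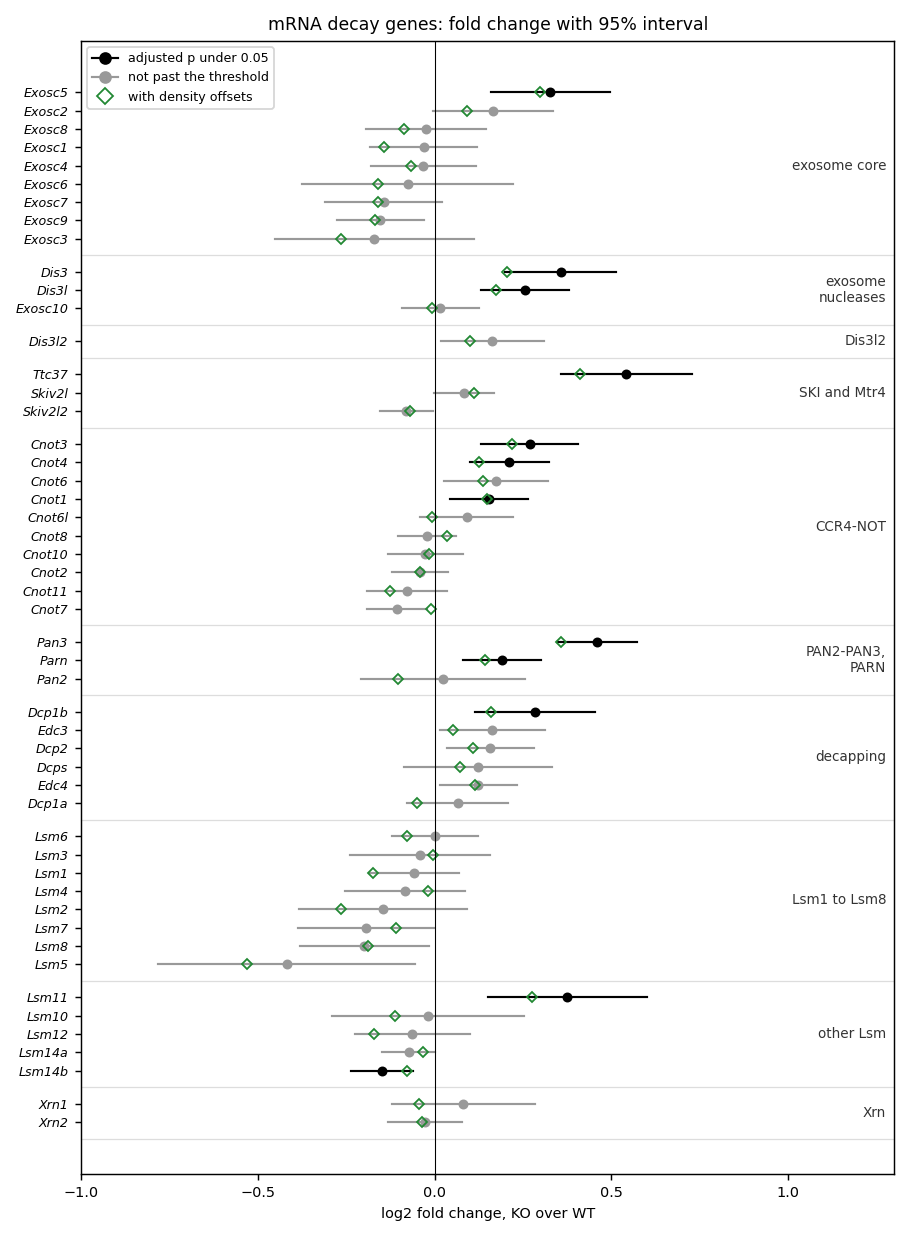
Log2 fold change of KO over WT (x axis) for each of the 50 decay genes (y axis), grouped by role, with points for the estimate and bars for its 95% interval. The 11 genes higher in KO and the 1 lower are set apart from the rest, which spread to both sides of 0.

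Because the KO libraries were mostly deeper, the same test was repeated with adjustments for count density or depth. None of them can fully part depth from genotype. With offsets that remove the trend of the log2 count with the number of counts per exonic base (density offsets), 5 members were higher and 2 lower, where 8.37% of all tested genes were higher and 7.82% lower. With offsets for both count density and exonic length, chosen after the values had been seen, 5 were higher and 0 lower, against 8.01% and 7.95%. At an unadjusted p under 0.05, 10 members were above 0 and 8 below in that fit, where 15.5% and 15.2% of all tested genes were. Pan3, Ttc37, Dis3l, Cnot3 and Exosc5 were the members called higher under both. With the log2 library total as a term in the model, 65.8% of whose variance lies between the groups, 1 member was higher (Pan3) and 0 lower, against 0.588% and 0.0771% of all tested genes. In that fit 4 members were above 0 and 5 below at an unadjusted p under 0.05. The 12 genes called above kept their direction in all 23 alternative fits.

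Pan3 was the member with the smallest p. It encodes the regulatory subunit that recruits PAN2 to poly(A) tails, and lies on chromosome 5 at 147430161 to 147548502 on the plus strand (mm10). The KO libraries had 71.8, 66.3, 61.7, 60.6 and 65.0 CPM (KO 1, 2, 3, 4 and 6), and the WT libraries ran from 43.4 to 50.1 CPM with a median of 47.5. Every KO library thus exceeded every WT library, and the shallowest KO library, KO 1, was the highest. The log2 fold change was 0.46 ± 0.05 (SE; edgeR quasi-likelihood, adjusted p = 7.49e-05), a level 1.37 times that of WT. Pan3 passed in 23 of the 23 alternative fits, with a log2 fold change of 0.33 with density and length offsets and 0.63 with the library total as a term.

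Pan2, the catalytic partner of Pan3, was not called. Its KO libraries had 32.5, 45.7, 31.8, 31.7 and 33.8 CPM and its WT libraries 29.8 to 40.9 CPM, so that 4 of the 5 KO libraries lay inside the WT range. The log2 fold change was 0.02, with a 95% interval of -0.21 to 0.26 (adjusted p = 0.894), and without KO 2, its highest library, it was -0.09 (adjusted p = 0.490). Parn encodes a poly(A)-specific ribonuclease that acts outside these complexes. Parn rose by less, from 47.8 ± 2.23 CPM (SD, n = 7) to 54.5 ± 3.53 CPM (SD, n = 5), a log2 fold change of 0.19 ± 0.05 (adjusted p = 0.0127), and without KO 2 and WT 4 its adjusted p was 0.0742.

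Of the 10 CCR4-NOT genes matched by symbol, 3 rose and 0 fell, and 1 was below 0 at an unadjusted p under 0.05. Cnot3, whose product forms the NOT module with CNOT1 and CNOT2, had 52.4, 52.9, 54.3, 50.8 and 58.6 CPM in KO and 36.2 to 47.5 CPM (median 46.4) in WT. The groups did not overlap, and the fold change was 0.27 ± 0.06 on the log2 scale (adjusted p = 0.00628). Cnot4 encodes the E3 ubiquitin ligase of the family. Its KO libraries had 68.7, 67.1, 71.0, 71.4 and 71.0 CPM, all above the WT range of 53.7 to 66.0 CPM (median 59.5; log2 fold change 0.21 ± 0.05, adjusted p = 0.00789). Cnot1, the scaffold on which the complex is built, had 199, 209, 194, 213 and 200 CPM in KO and 158 to 202 CPM (median 183) in WT.

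The groups overlapped for Cnot1, and its rise of 0.15 ± 0.05 on the log2 scale (adjusted p = 0.0361) was the least stable of the 12. Its call was lost without any one of KO 2, KO 4, KO 6, WT 1, WT 3 or WT 5, with a highest adjusted p of 0.0983. The catalytic subunits were not called in the main test. Cnot7, one of the 2 alternative CAF1-type deadenylases, had a log2 fold change of -0.11 (adjusted p = 0.0529). It was called lower in 6 of the 23 alternative fits, with adjusted p of 0.0278 with DESeq2's size factors, 0.0326 with upper-quartile factors, 0.0332 with DESeq2's test, 0.0335 with no filter, 0.00771 without KO 1 and 0.0333 without WT 4. Its alternative Cnot8 had a log2 fold change of -0.02 (adjusted p = 0.727). The CCR4-type deadenylases gave 0.17 for Cnot6 (adjusted p = 0.0681; called in 3 of the 23, with 0.00802 without WT 4) and 0.09 for Cnot6l (adjusted p = 0.285).

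Of the 9 exosome core genes, which form the ring through which RNA is threaded, only Exosc5 was called. It had 21.9, 23.5, 23.2, 22.2 and 23.2 CPM in KO and 14.8 to 21.4 CPM (median 18.3) in WT, so the groups did not overlap, although the lowest KO library (KO 1) and the highest WT library (WT 1) lay close together. The log2 fold change was 0.33 ± 0.08 (adjusted p = 0.00684). The other 8 core genes had log2 fold changes of -0.17 to 0.17 and none was called. Exosc9, at -0.15, passed in 4 of the 23 alternative fits (adjusted p = 0.0468 with density offsets) and not in the main test (adjusted p = 0.0556); it is named here after its values were seen. Of the 9 core genes 7 had a fold change below 0 (5 with the library total as a term), and 1 of them, Exosc9, had an unadjusted p under 0.05.

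Of the 3 nucleases that bind the core, Dis3 and Dis3l rose and Exosc10 did not pass. Dis3, the nuclear exonuclease and endonuclease of the complex, had 29.0, 36.4, 31.2, 29.7 and 28.7 CPM in KO and 22.0 to 26.2 CPM (median 24.4) in WT, with no overlap. Its log2 fold change was 0.36 ± 0.07 (adjusted p = 0.00287), and 0.20 with density offsets (adjusted p = 0.0558). Dis3l, the cytoplasmic counterpart, had 56.9, 70.9, 61.1, 66.3 and 58.8 CPM in KO and 49.4 to 56.9 CPM (median 51.8) in WT. KO 1 lay just inside the WT range, and the log2 fold change was 0.26 ± 0.06 (adjusted p = 0.0048). Exosc10, the second nuclear nuclease, was at 58.0 ± 2.94 CPM (SD, n = 7) in WT and 58.6 ± 3.65 CPM (SD, n = 5) in KO. Dis3l2, which degrades uridylated RNA without the exosome, had a log2 fold change of 0.16 (adjusted p = 0.0860; 0.0205 without KO 1).

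Ttc37 had the largest fold change among the members. It encodes the tetratricopeptide scaffold of the SKI complex, which feeds mRNA to the cytoplasmic exosome, and lies on chromosome 13 at 76098734 to 76190316 on the plus strand (mm10). The KO libraries had 47.0, 51.2, 42.7, 48.3 and 47.8 CPM, and the WT libraries 24.3 to 39.6 CPM with a median of 32.9. No KO library reached down to the WT range, whose extremes were WT 2 and WT 4. The log2 fold change was 0.54 ± 0.09 (adjusted p = 0.000744), or 1.46 times the WT level, and 0.39 with density and length offsets (adjusted p = 0.00298).

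The helicases on this side of the exosome did not pass. Skiv2l, the SKI helicase, had 108, 119, 114, 115 and 115 CPM in KO and 99.8 to 113 CPM in WT (log2 fold change 0.08, adjusted p = 0.123). Skiv2l2, the nuclear MTR4 helicase that serves the TRAMP and NEXT complexes, had 90.6, 89.3, 92.0, 90.5 and 91.9 CPM in KO and 92.0 to 102 CPM in WT (log2 fold change -0.08, adjusted p = 0.103; 0.0469 with DESeq2's size factors). Thus, of the SKI genes of the rule, the scaffold was called and the helicase was not. The difference between their fold changes was not tested.

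All 6 decapping genes had a fold change above 0 in the main test, from 0.06 to 0.28 on the log2 scale, but 5 of 6 did with either set of offsets and 2 of 6 with the library total as a term; 1 was called. Dcp1b, one of the 2 DCP1 activators of the decapping enzyme, had 27.0, 33.9, 27.4, 29.4 and 31.8 CPM in KO and 21.8 to 28.0 CPM (median 24.2) in WT. KO 1 and KO 3 lay inside the WT range, and the log2 fold change was 0.28 ± 0.08 (adjusted p = 0.0150), falling to 0.16 with density offsets (adjusted p = 0.131). Its paralog Dcp1a gave 0.06 (adjusted p = 0.494). The 5′ exonucleases that take over after decapping were not called: the log2 fold change was 0.08 for the cytoplasmic Xrn1 (adjusted p = 0.549) and -0.03 for the nuclear Xrn2 (adjusted p = 0.706), and neither passed an unadjusted p of 0.05.

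Lsm1 to Lsm8 form the rings that bind deadenylated mRNA in the cytoplasm (with Lsm1) or U6 snRNA in the nucleus (with Lsm8). Of these 8 genes 0 were called by edgeR, and 3 were below 0 at an unadjusted p under 0.05; the log2 fold changes ran from -0.42 to 0.00. Lsm5 was the lowest, with 14 to 33 counts per library and 2.86, 3.58, 4.73, 4.15 and 4.78 CPM in KO against 3.85 to 6.73 CPM in WT (log2 fold change -0.42, adjusted p = 0.0766). With density offsets it was -0.53 (adjusted p = 0.0443), and without WT 7 it was -0.48 (adjusted p = 0.0412).

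Of the 5 other Lsm genes 1 rose and 1 fell. Lsm14b, the RAP55 family protein that associates with the decapping machinery and stored mRNA, had 97.2, 83.7, 87.8, 84.2 and 84.6 CPM in KO and 95.3 to 100.2 CPM (median 96.3) in WT. KO 1 lay inside the WT range and the other 4 KO libraries below it, and the log2 fold change was -0.15 ± 0.04 (adjusted p = 0.0138), or -0.08 with density offsets (adjusted p = 0.118). Lsm14a, its paralog, gave -0.07 (adjusted p = 0.127). Lsm11, a subunit of the U7 snRNP that processes the ends of histone pre-mRNA and not a general decay factor, had 81.6, 62.1, 82.1, 87.2 and 106 CPM in KO and 51.1 to 69.4 CPM (median 66.3) in WT. KO 2 lay inside the WT range, and the log2 fold change was 0.38 ± 0.11 (adjusted p = 0.0154).

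**Figure D2:**
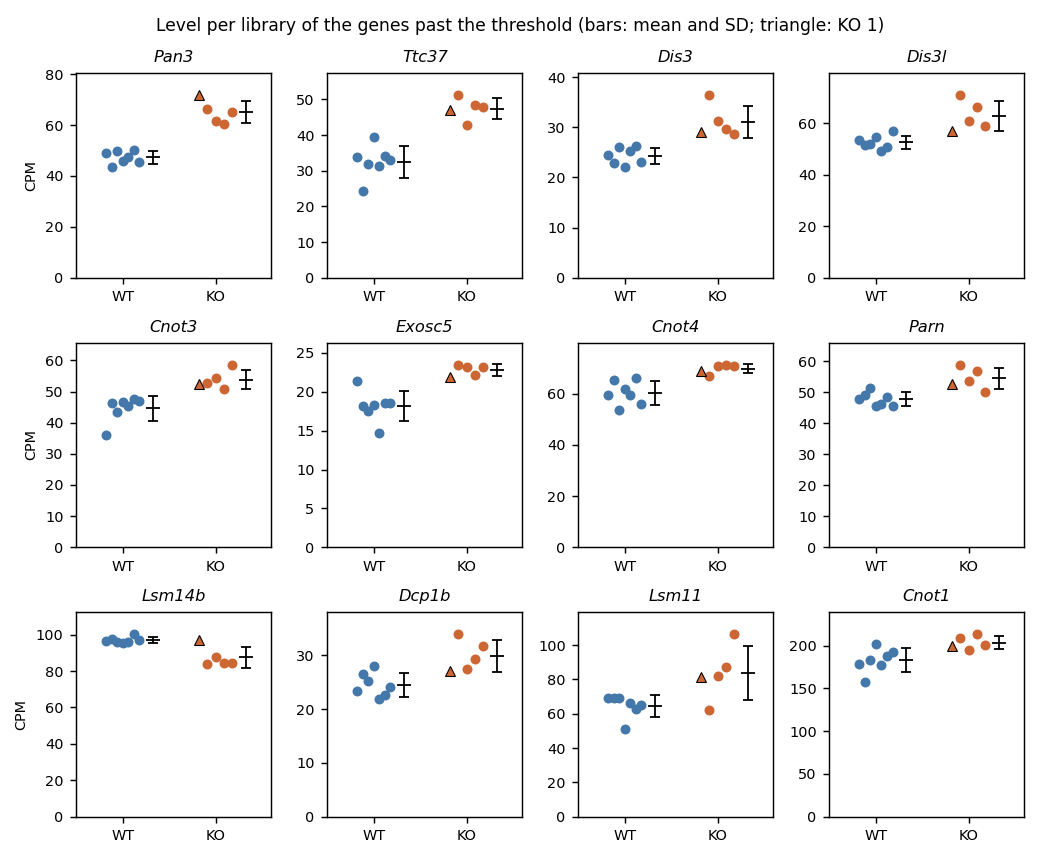
Level in CPM (y axis, from 0) in each WT and KO library for the 12 genes past the threshold, with bars for the mean and SD and a triangle for KO 1. The KO and WT points do not overlap for Pan3, Ttc37, Dis3, Cnot3, Exosc5 and Cnot4.

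KO 1 is the KO library with a depth near that of WT, and its values were compared with the WT range after the results had been seen. KO 1 was itself among the libraries that gave these calls, so its place on the side of a call is no independent check. It lay outside the WT range on the side of the call for 8 of the 12 called genes. It lay inside that range for Dis3l, Lsm14b, Dcp1b and Cnot1. For Pan3 its level was 0.60 above the WT mean on the log2 scale, for Ttc37 0.53 and for Dis3 0.26. For Lsm14b it was 0.00.

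The promoters of 4 of these genes are shown because Pan3 rose while its partner Pan2 was not called, and because Ttc37 and Dis3 were the members with the next smallest p. Each line gives the 150 bases before the RefSeq start (GRCm38.p6, 5′ to 3′ on the gene's strand), with capitals for matches on either strand to 6 short motifs. The ETS factors were searched as CCGGAA. For NRF1 the letters searched on both strands were GCATGCG. The SP1 box was searched in the same way as GGGCGG. The CCAAT box was searched by the letters of its name. For YY1 the letters searched for were AAGATGG. The TATA box, finally, was searched for as TATAAA. No motif holds another, and the NRF1 and YY1 letters were shortened after a first look at the matches, by which members with NRF1 letters became more frequent. The genes shown and the letters were chosen with the values in view.
Pan3, chr5:147430006-147430155, plus strand: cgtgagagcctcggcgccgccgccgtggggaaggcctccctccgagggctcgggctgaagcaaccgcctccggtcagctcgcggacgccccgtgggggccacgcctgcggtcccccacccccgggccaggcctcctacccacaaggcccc
Pan2, chr10:128303185-128303334, plus strand: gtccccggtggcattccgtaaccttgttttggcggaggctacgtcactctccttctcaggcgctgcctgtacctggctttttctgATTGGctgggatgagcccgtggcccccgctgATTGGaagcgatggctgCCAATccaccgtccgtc
Ttc37, chr13:76098584-76098733, plus strand: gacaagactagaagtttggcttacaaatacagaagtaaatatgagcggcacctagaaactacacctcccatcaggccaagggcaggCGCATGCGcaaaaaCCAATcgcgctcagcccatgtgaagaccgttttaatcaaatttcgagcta
Dis3, chr14:99099771-99099920, minus strand: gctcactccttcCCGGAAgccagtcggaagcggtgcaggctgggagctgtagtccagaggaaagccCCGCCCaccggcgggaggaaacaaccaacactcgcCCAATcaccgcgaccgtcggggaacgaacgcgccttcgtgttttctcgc

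The 4 windows shared no single arrangement: Pan2 held 3 CCAAT matches, Pan3 no match to any of the 6, Ttc37 a palindromic NRF1 match read on both strands and 1 CCAAT match, and Dis3 1 ETS, 1 SP1 and 1 CCAAT match. A RefSeq promoter was found for 41 of the 50 members. Over the whole window of 250 bases before to 50 after the start, SP1 letters were held by 25 of the 41 (61.0%) and by 32.9% of 27025 promoters. NRF1 letters were held by 6 of the 41 (14.6%) and by 3.07% of all, and ETS letters by 8 (19.5%) and 12.2%. CCAAT was held by 14 (34.1%) and by 34.5% of all, the TATA box by 0 and by 13.0%, and the YY1 letters by 0 and by 4.53%. These are matches of letters only. The 27025 promoters outnumber the 14274 tested genes, so they are not limited to genes expressed in this cortex, as the members are. The shares are thus no like comparison, and none was tested.

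Fold change followed exonic length among the members. Their Spearman correlation of exonic length with log2 fold change was 0.62 over 50 genes, beside 0.29 over 14110 genes; genes are not independent replicates, and all share the same 12 libraries. Above 4000 exonic bases 7 of 15 members were higher (46.7%), where 24.3% of all tested genes of that length were. From 2000 to 4000 bases 3 of 19 members were higher (15.8%, against 13.2%), and below 2000 bases 1 of 16 was (6.25%, against 6.29%). Below 2000 bases 0 of the 16 members were lower by edgeR, against 24.6% of genes, and 4 were below 0 at an unadjusted p under 0.05. The length classes were set after the values had been seen.

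The members that were called higher had a median exonic length of 4927 bases, against 2663 for the other members and 3168 for all tested genes. Exosc5, with 1020 bases, was the short gene among them, and Lsm5, with 494 bases, had the lowest fold change of all members. With density offsets the correlation was 0.54 in the members and 0.24 over all genes, and with density and length offsets 0.24 and -0.00. Genotype and depth cannot be told apart in this difference between long and short decay genes, since 4 of the 5 KO libraries were deeper than every WT library.

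**Figure D3:**
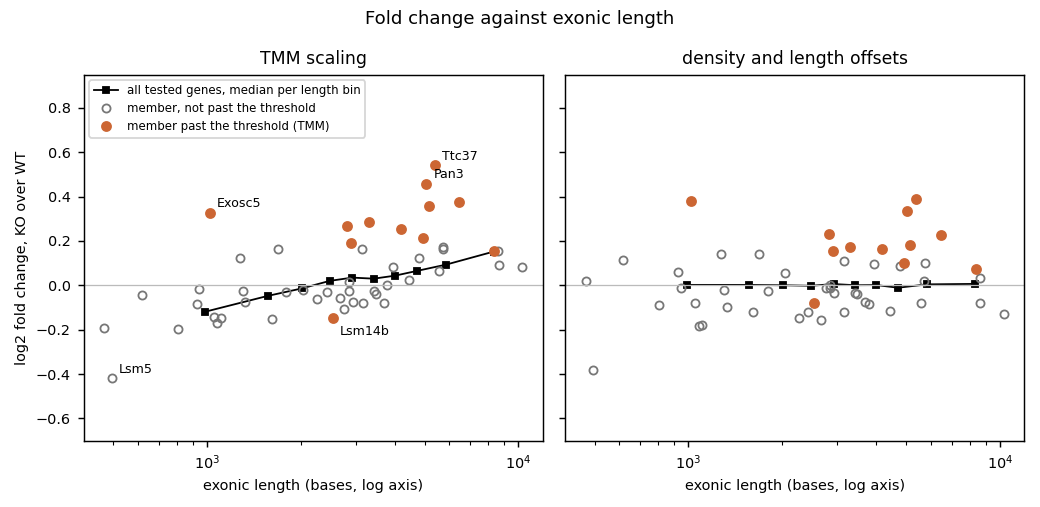
Log2 fold change of KO over WT (y axis) against exonic length in bases (log x axis) for the 50 decay genes, with TMM scaling (left) and with density and length offsets (right), with filled points for those past the threshold and a line for the median of all tested genes per length bin. The rise with length, with a Spearman correlation of 0.62 in the members, is weaker with density and length offsets, at 0.24.

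In GENCODE M21, 25 members have a transcript annotated as an NMD target and 25 have none, a split made after the values had been seen. Of the former 8 were higher and 0 lower by edgeR (2 below 0 at an unadjusted p under 0.05), and of the latter 3 were higher and 1 lower, with median log2 fold changes of 0.12 and -0.04. Among all tested genes 21.2% of the 3787 with such a transcript and 13.2% of the 10441 without one were higher, and 12.5% and 15.04% were lower. Pan3 has 3 such transcripts, as have Cnot1, Cnot2 and Cnot10. Of these, Cnot2 and Cnot10 were not called by edgeR (log2 fold change -0.04 and -0.03, adjusted p = 0.435 and 0.720). Counts per gene do not tell transcripts apart, and the genes with such a transcript were longer (median 2944 against 2534 exonic bases in the members).

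For 15 members the exons overlap those of another gene of the table, on the same strand for 2 and on the opposite strand for 13, and the sources used here do not give the strand setting of the counting. Exosc5 shares 355 bases, 34.8% of its exonic length, with Tmem91 on the other strand (log2 fold change of Tmem91 0.12, adjusted p = 0.656). Cnot3 shares 433 bases, 15.3%, with Leng1 (0.23, adjusted p = 0.0856), and Dis3 shares 325 bases with Pibf1 (0.08, adjusted p = 0.486). Reads from these stretches may have been counted for either gene. Exosc6 lies wholly within exons of Aars on the same strand, so its counts are uncertain. Pan3 and Ttc37 share no exonic bases with another annotated gene.

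Levels per kilobase of exon, which allow genes to be compared, spanned 4.71 to 44.0 CPM per kb in WT with a median of 16.1. The highest was Cnot7 at 44.0 ± 1.34 CPM per kb (SD, n = 7), followed by Lsm7 at 41.5 ± 3.26, a difference within the spread. Lsm14b at 38.2 ± 0.65 came next. The lowest were Dis3 at 4.71 ± 0.32 and Ttc37 at 6.05 ± 0.84 CPM per kb, which do not overlap by 1 SD, and then Dcp1b at 7.41. Thus 2 of the 3 called members with the smallest p, Ttc37 and Dis3, had the 2 lowest levels per kilobase of exon of all 50. The length takes the exons of all matched transcripts together, so it can exceed that of the transcripts expressed here. Among the deadenylases of WT cortex, the level of Cnot7 exceeded that of Cnot8 (33.9), Cnot6 (17.8), Cnot6l (10.9) and Pan2 (7.80 CPM per kb).

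Ratios between related members do not depend on the size factor of a library and were compared for 7 pairs. None passed an exact permutation test, two-sided and adjusted over the 7 pairs, although 2 had an unadjusted p under 0.05. The log2 ratio of Skiv2l to Skiv2l2 was 0.17 ± 0.10 (SD, n = 7) in WT and 0.33 ± 0.06 (SD, n = 5) in KO, a difference of 0.16 ± 0.05 (SE, exact permutation p = 0.00758, adjusted p = 0.0530). Its KO values ran from 0.25 to 0.41 and its WT values from -0.03 to 0.28, so that the groups overlapped slightly. This p was taken as 2 times the smaller one-sided p, a definition settled after both results had been seen. With the share of arrangements whose absolute difference is as large, the exact permutation p was 0.00631 and the adjusted p 0.0442, which passes.

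The log2 ratio of Dcp1a to Dcp1b was 1.03 ± 0.16 (SD, n = 7) in WT and 0.80 ± 0.09 (SD, n = 5) in KO, a difference of -0.23 ± 0.07 (exact permutation p = 0.0202, adjusted p = 0.0707). Per kilobase of exon Dcp1a was at 9.06 and Dcp1b at 7.41 CPM per kb in WT, and at 9.44 ± 1.08 and 9.02 ± 0.89 CPM per kb (SD, n = 5) in KO, where the levels lie within the spread. For the other 5 pairs (Cnot6/Cnot6l, Cnot7/Cnot8, Lsm14a/Lsm14b, Xrn1/Xrn2 and Dis3/Dis3l) the differences ran from -0.08 to 0.11 with adjusted p of 0.159 to 0.255. With CPM after density offsets 3 pairs passed, namely Skiv2l/Skiv2l2, Dcp1a/Dcp1b and Cnot6/Cnot6l, and 2 passed without KO 1 (Skiv2l/Skiv2l2 and Lsm14a/Lsm14b) and 2 without WT 2 (Skiv2l/Skiv2l2 and Dcp1a/Dcp1b).

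**Figure D4:**
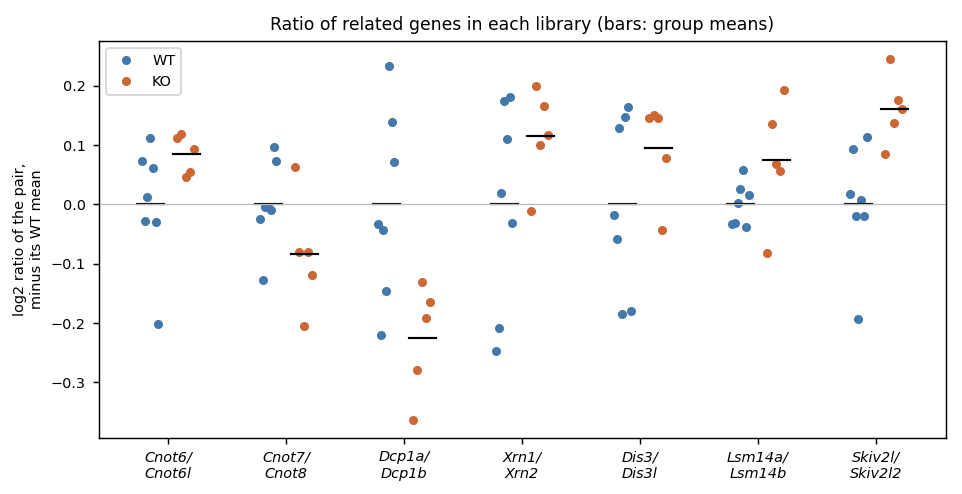
Log2 ratio of the members of each of 7 pairs minus its WT mean (y axis) in every library, WT and KO side by side, with lines for the group means. The KO mean of Skiv2l/Skiv2l2 lies highest relative to WT, at 0.16, and that of Dcp1a/Dcp1b lowest, at -0.23.

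The mRNA levels of genes listed as recruiting, activating or serving this machinery moved in both directions. Of 56 such cofactors listed, 53 were tested, and 9 were higher and 13 lower (17.0% and 24.5%, beside 15.3% and 14.4% of all tested genes). The 13 include Mpp6, a symbol that in mouse names a membrane palmitoylated protein and was listed in error for an exosome cofactor. With density offsets 4 were higher and 11 lower (7.55% and 20.8%, beside 8.37% and 7.82% of all tested genes). With the library total as a term 1 was higher and 1 lower, where 0.588% and 0.0771% of all tested genes were. The 3 higher cofactors with the smallest p were the terminal uridylyltransferase Zcchc6, the decapping activator Patl1 and the Argonaute gene Ago4. The 3 lower ones were Tob1, which binds CCR4-NOT through its deadenylase subunits, Zfp36l2, an AU-rich element binding protein, and C1d, a nuclear exosome cofactor.

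Zcchc6 rose from 90.4 ± 4.77 CPM (SD, n = 7) to 117 ± 7.73 CPM (SD, n = 5), a log2 fold change of 0.37 ± 0.05 (adjusted p = 0.000248). Tob1 fell from 63.9 ± 5.10 to 46.8 ± 2.12 CPM (log2 fold change -0.45 ± 0.06, adjusted p = 0.000201). C1d fell from 48.5 ± 3.09 to 38.3 ± 0.93 CPM (log2 fold change -0.34 ± 0.05, adjusted p = 0.000597). Of these 6 genes Zcchc6 and C1d also passed with the library total as a term (adjusted p = 0.0372 and 0.0407). By family, grouped after the values had been seen, 4 of the 5 BTG and TOB genes, antiproliferative proteins that bind CCR4-NOT, were lower (4 with density offsets, 3 with density and length offsets). All 4 Argonaute genes were higher in the main test and 2 in each of those fits. Of the tristetraprolin family 2 of 3 were lower in all 3 fits, and of the poly(A)-binding group 3 of 4 were lower in the main test and 2 in each of the others. Of the other 4 families, 1 of 3 GW182 genes was higher, 1 of 7 decapping partners higher and 1 lower, 1 of 9 nuclear exosome cofactors higher and 1 lower, and 1 of 2 uridylyltransferases higher. The families do not hold every listed cofactor, so their calls do not add up to those of the whole list. With the library total as a term 0 of the 9 BTG, TOB and Argonaute genes passed by edgeR (smallest adjusted p = 0.0551), and 6 had an unadjusted p under 0.05.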

How the data were processed

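The authors deposited 1 table of whole-number read counts per gene and library, neither normalized nor pooled, made with STAR on mm10, per the submitters' processing notes; the sources used here name no counter, strand setting or filter. Per the labels' protocols, RNA was isolated with Trizol and a column kit. Counts were fitted with edgeR 4.0.16 in R 4.3.3 (TMM, filterByExpr by group, quasi-likelihood test, group as the only term, all 12 libraries, Benjamini-Hochberg adjustment over all 14274 tested genes, threshold 0.05). CPM used TMM-scaled library sizes, and permutation tests used log2(CPM + 0.5). The scripts were tested on simulated data. There the main test called 32.8% of the genes changed by 0.25 on the log2 scale, and 76.1% of those changed by 0.5. Far fewer genes were changed there than were called in these data, and weakly expressed genes were not among them. The adjusted threshold was thus stricter there, and these shares are not the sensitivity of the test here. A gene that was not called may still have changed by such an amount. The common biological coefficient of variation was 8.11%. Lengths, positions and NMD transcripts came from GENCODE M21, matched by symbol for 14410 rows and by accession for 447, with 52 unmatched. Promoters came from RefSeq. Density offsets came from loess fits with a span of 0.3.

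The members and all lists were chosen with earlier results of these data known. Named were Upf3b, members past the threshold and both members of each pair. Also named were the member with the smallest p in a role group with none past it, and up to 3 cofactors per direction. Cnot2, Cnot10, Exosc6, Exosc9, Exosc10, Lsm7, Pan2 and the listed Rqcd1 and Wdr61 were named outside this rule, after their values were seen. Alternatives were other normalizations (DESeq2's size factors, upper quartile), DESeq2 1.42.0, limma-voom (limma 3.58.1), other low-count filters, density offsets, the library total as a term, mouse number as a block, other pseudocounts, and libraries left out. Density and length offsets and the permutation p from absolute differences were added after seeing the data. The latter was computed first and gave 1 pair past the threshold; it was then replaced by the p as scipy 1.17.1 defines it, which gives 0. The smallest two-sided p possible is 0.00253. Precision is limited by the number of animals, and by counts of 14 to 33 per library for Lsm5.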

Additional observations from a re-analysis of the deposited data

Results flagged for a closer look

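Among 36 genes, in 72 groups of libraries examined, 4 single values stood far from the rest of their group by Dixon's criterion, where chance alone gives about 1 group in 20. Cnot3 was at 36.2 CPM in WT 1, below the other WT libraries at 43.5 to 47.5 CPM. Lsm11 was at 51.1 CPM in WT 4, below the other WT libraries at 62.8 to 69.4 CPM. Pan2 was at 45.7 CPM in KO 2, above the other KO libraries at 31.7 to 33.8 CPM. Zcchc6 was at 103 CPM in KO 2, below the other KO libraries at 118 to 123 CPM. Without those libraries Cnot3, Lsm11 and Zcchc6 were still called in the same direction, and Pan2, not called with or without KO 2, changed sign.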

How the results depend on the processing

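Several values moved by more than 1.5 times, or past 1 SD, under an alternative; the cause was not tested. Members higher, 11 in the main test, were 5 with density offsets, 5 with density and length offsets, 1 with the library total and 5 with the replicate block. Members lower, 1 in the main test, were 4 with DESeq2's size factors, 2 with upper-quartile factors, 2 with density offsets, 0 with the library total, 2 with DESeq2's test, 3 with no filter, 0 with the replicate block (1 at an unadjusted p under 0.05) and 0 with density and length offsets. All called genes, 4233 in the main test, were 2284 with density offsets, 95 with the library total, 2315 with the replicate block and 2252 with density and length offsets. Cofactors higher were 4 with density offsets, 1 with the library total, 5 with the replicate block and 4 with density and length offsets; cofactors lower were 1 with the library total and 6 with the replicate block. The members' median log2 fold change was -0.0277 with DESeq2's size factors, -0.0273 with DESeq2's test and -0.0544 with the library total. Pairs past the threshold, 0 in the main test, were 3 with density-offset CPM, 2 with the replicate block and 1 with the p from absolute differences.

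Leaving out 1 library at a time gave 10 to 14 members higher, 1 to 2 lower, medians of -0.0188 to 0.0284, 3129 to 4887 called genes, 6 to 11 cofactors higher and 9 to 14 lower, 0 to 2 pairs, and Upf3b log2 fold changes of -3.92 to -3.64. Without KO 4 there were 6 cofactors higher, against 9. Members lower were 2 without KO 1, KO 3, WT 4, WT 6 or WT 7.

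Of called genes 51.6% were higher, against 44.3% with DESeq2's size factors, 43.8% with DESeq2's test and 88.4% with the library total. Among all 50 members, 7 changed sign with density offsets, 11 with the library total, 9 with density and length offsets and at most 5 in any other fit; none of these was called in either fit. Of the genes named, the reversed values with the library total were Cnot7 0.0043, Dis3l2 -0.0748, Exosc6 0.0964 and Exosc10 -0.0644. With density offsets they were Cnot6l -0.0074, Cnot8 0.0350, Exosc10 -0.0075 and Pan2 -0.1050, and with density and length offsets Cnot6l -0.0781, Cnot8 0.0536, Pan2 -0.1154 and Lsm7 0.0205. In these 2 fits and with the library total Dcp1a was at -0.0514, -0.0812 and -0.1035, and Xrn1 at -0.0434, -0.1292 and -0.1189. Exosc10 was at -0.0034 with DESeq2's size factors, -0.0029 with DESeq2's test, -0.0006 with no filter and -0.0007 with the replicate block. Without KO 2 and WT 4 Exosc6 was at 0.0337, Exosc10 at -0.0355 and Pan2 at -0.1399. Without KO 6 Cnot10 was at 0.0028. Leaving out 1 library gave -0.2116 to 0.0575 for Exosc6 (above 0 without KO 2), -0.0118 to 0.0415 for Exosc10 (below 0 without KO 2, KO 6 or WT 4) and -0.0928 to 0.0662 for Pan2 (below 0 without KO 2, WT 3 or WT 4). Whether libraries with the same mouse number form pairs was not settled. Correlations of their deviations from the group means were 0.14, -0.38, -0.05, -0.08 and 0.04, and so few values cannot decide it.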
